A study of Homo sapiens with 14 samples.

Results

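A cassette exon is an exon that can be kept in or left out of the mature RNA. When its length is a multiple of 3, leaving it out removes whole codons and the reading frame of the exons that follow stays as it was. In HEK293T RNA-Seq, 19703 frame-preserving cassette exons were found among 50528 cassette exons over 30 nt, which is 39.0%. They were taken from a table of 114349 splice events, with exon lengths from the event coordinates, a mean of at least 10 junction reads over both genotypes, and the row with the most reads where an exon had several. The 30825 cassette exons of other lengths are called frame-shifting here and serve as the comparison.

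HEK293T is a human embryonic kidney epithelial line. The WT libraries (n = 3) carry the genotype label SF3B1 K700K and the MT libraries (n = 3) SF3B1 K700E, which the study introduced at the endogenous locus of an isogenic line. No other treatment separates the groups. The labels do not say whether replicates came from separate cultures, so p-values measure the spread between these libraries, and neither the substitution itself nor markers of the cell line could be read from splice levels. For each event 6 MT values are listed and only 3 of them have a separate column. Those 3 are used as MT libraries and numbered in column order, and whether they are the 3 labelled MT samples is not settled.

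SF3B1 is a subunit of the U2 small nuclear ribonucleoprotein, which recognises the branch point upstream of a 3′ splice site. The K700E substitution is known for the use of alternative 3′ splice sites. Cassette exons whose length keeps the frame are a common way for a gene to make protein isoforms that differ by a short internal segment, while an exon that shifts the frame often brings a premature stop codon and decay of the RNA. The inclusion level used throughout is a fraction. It is the share of the keeping form out of the keeping and skipping forms, from junction reads divided by the length of each form. Each of several overlapping exons is set against the skipping form separately, so their levels are not shares of one whole.

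The sequences below show the exons on which the genotype comparison turns. They were read from hg38 on the strand of the gene, 5′ to 3′. UBQLN1 and COASY each had a called exon that shares its 3′ end with a second frame-preserving exon of another start, so both starts are shown, with the AG that ends the intron in capitals and the first 5 exon bases after it.
UBQLN1 84-nt exon, start (chr9:83666429-83666458, minus strand): aattgtttgaacacttgccccatAGatgat
UBQLN1 45-nt exon, start (chr9:83666390-83666419, minus strand): tcccctatttgctggaaatcctcAGcttca
COASY 192-nt exon, start (chr17:42562271-42562300, plus strand): cgattccttgaagaccctggtgcAGcttag
COASY 132-nt exon, start (chr17:42562331-42562360, plus strand): ccctgtgacaagggttcctgtccAGtttcc

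The starts lie 39 nt apart in UBQLN1, or 13 codons, so both choices keep the frame there. In COASY they lie 60 nt apart, the length of 20 codons. Both COASY exons are annotated as coding in part, and whether these 60 nt are translated was not examined. The whole 84-nt exon of UBQLN1 is given with its 45-nt form in capitals, because the forms differ only in their start.
UBQLN1 84-nt exon (chr9:83666350-83666433, minus strand): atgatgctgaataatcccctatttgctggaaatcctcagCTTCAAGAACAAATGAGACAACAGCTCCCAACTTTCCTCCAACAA

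The NASP exon is too long to print, and its first 60 bases are shown in capitals after 25 intron bases. The MYL6 sequence is a 144-nt exon with its 36-nt form, which has the same start and an earlier end, in capitals.
NASP 1017-nt exon, start (chr1:45607296-45607380, plus strand): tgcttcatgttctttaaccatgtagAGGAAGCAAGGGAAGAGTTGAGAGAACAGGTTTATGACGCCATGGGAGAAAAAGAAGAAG
MYL6 144-nt exon (chr12:56159587-56159730, plus strand): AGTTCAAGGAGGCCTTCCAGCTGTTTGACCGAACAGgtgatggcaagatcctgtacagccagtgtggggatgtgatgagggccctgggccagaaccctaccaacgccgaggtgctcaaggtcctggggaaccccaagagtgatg

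Finally, 3 short coding exons whose WT and MT libraries did not overlap are shown whole in capitals, between 25 intron bases before and 10 after. They add 19 codons in CLSTN1, 12 in SMARCA1 and 19 in MYO9A.
CLSTN1 57-nt exon (chr1:9737488-9737579, minus strand): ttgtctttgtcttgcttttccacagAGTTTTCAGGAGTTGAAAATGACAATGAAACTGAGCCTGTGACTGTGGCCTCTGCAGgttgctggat
SMARCA1 36-nt exon (chrX:129493030-129493100, minus strand): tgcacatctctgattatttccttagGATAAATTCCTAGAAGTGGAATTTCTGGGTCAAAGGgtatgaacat
MYO9A 57-nt exon (chr15:72019029-72019120, minus strand): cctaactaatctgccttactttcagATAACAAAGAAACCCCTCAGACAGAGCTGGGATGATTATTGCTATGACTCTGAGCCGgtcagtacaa

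The 19703 exons belong to 7677 genes. In 2868 of these genes there was 1 such exon, and 67 genes had 10 or more. SYNE2, which encodes a giant protein of the nuclear envelope, had the most with 20, and the ubiquitin ligase gene HUWE1 had 16. Exon lengths ran from 33 to 8247 nt with a median of 117 nt. The letters next to the exon ends were AG before 19688 exons, GT after 19436 and GC after 256.

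Junction reads set the precision of each level. The mean number of reads per library had a median of 91.9, with quartiles of 43.5 and 195 and a maximum of 43820, and 47.0% of the exons had at least 100, while 1663 had under 20. These are the authors' group means, over all 6 listed values for MT, and the reads of a single library were not used. Among exons with a mean level of 0.1 to 0.9, the median SD between replicates was 0.155 at 10 to 20 reads, 0.0998 at 20 to 50 and 0.0765 at 50 to 100. It was 0.0577 at 100 to 300 reads and 0.0517 above 300. A difference of 0.1 was thus smaller than the typical replicate SD in the exons with fewest reads.

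Most frame-preserving exons were kept far more often than they were skipped. The share with a level above 0.9 was 76.3%, 75.8% and 77.0% in WT libraries 1 to 3 and 76.3%, 75.1% and 74.5% in MT libraries 1 to 3. The share below 0.1 was between 11.1% and 11.9% in every library. Levels of 0.1 to 0.9, at which both forms were present, were found in 11.7%, 12.6% and 11.9% of the exons in WT and in 12.5%, 13.6% and 14.1% in MT, and the genotypes overlapped. Such middle levels were less frequent among frame-shifting exons, at 9.13%, 9.87% and 9.78% in WT and 9.73%, 10.9% and 12% in MT. The value for frame-preserving exons was the higher of the pair in each of the 6 libraries. The median level of frame-preserving exons was 1 in each WT library and 1, 0.998 and 0.994 in the MT libraries.

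The annotation separated the exons more than the genotype did. In GENCODE release 44, 15915 of the frame-preserving exons (80.8%) were coding over their full length in at least 1 transcript, compared with 74.1% of frame-shifting exons. Another 1742 (8.84%) were coding in part, 2015 (10.2%) were annotated and not coding, and 31 had no annotated exon with the same ends. Fully coding frame-preserving exons had a mean level of 0.906 ± 0.00288 in WT and 0.902 ± 0.00470 in MT (SD, n = 3 each). Fully coding frame-shifting exons stood higher, at 0.952 ± 0.000970 in WT and 0.948 ± 0.00455 in MT. For exons that do not code, the 2 length classes were close to each other, at 0.449 ± 0.00781 and 0.445 ± 0.00764 in WT.

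The proportion of frame-preserving lengths depended on how often a fully coding exon was kept. By chance, 33.3% of whole numbers are multiples of 3. Among fully coding exons with a level over 0.99, the share of frame-preserving lengths was 38.7% ± 0.670 in WT and 39.0% ± 0.392 in MT (SD, n = 3 each). It was 41.1% ± 1.81 and 40.0% ± 0.999 at levels of 0.9 to 0.99, and 46.8% ± 1.24 and 45.0% ± 2.29 at 0.7 to 0.9. Fully coding exons that were skipped in much of the RNA were thus more often frame-preserving.

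This share reached 62.3% ± 1.74 in WT and 61.4% ± 2.87 in MT at levels of 0.3 to 0.7, where single libraries held 739 to 1006 coding exons. It was highest at 0.1 to 0.3, with 68.2% ± 1.41 in WT and 68.9% ± 1.21 in MT, and it was 58.9% ± 0.0570 and 59.1% ± 0.667 below 0.1. Exons that do not code showed no such change. Their frame-preserving share was between 28.5% and 35.1% in every library at every level. Exons coding in part did not show this rise either. Their share was 32.9% ± 0.708 in WT and 32.7% ± 0.386 in MT over 0.99, and 28.8% ± 0.540 and 30.4% ± 1.78 at 0.3 to 0.7. It was highest at 0.7 to 0.9, with 37.0% ± 2.27 in WT and 35.5% ± 1.90 in MT. The WT and MT values overlapped in each of the level classes of fully coding exons.

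**Figure D1:**
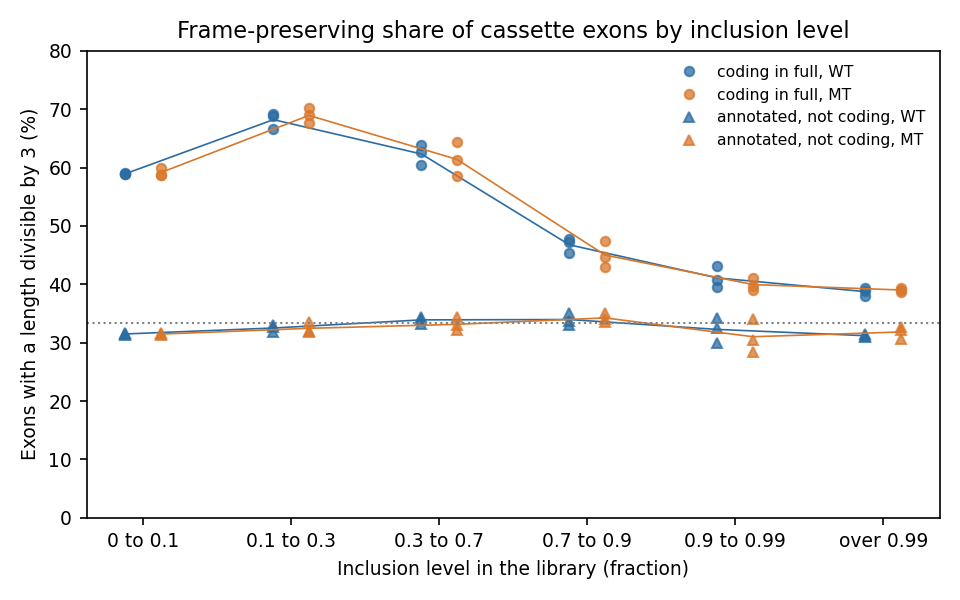
Percent of cassette exons whose length is divisible by 3 (y axis) against the inclusion level of the exon in the same library (x axis, fraction, 6 classes). Circles are exons coding in full and triangles annotated exons that do not code, each point is 1 library (blue WT, orange MT), lines join group means, and the dotted line is 33.3%. The share of coding exons lies between 38.04% and 39.4% above a level of 0.99 and between 66.6% and 70.1% at 0.1 to 0.3, while the triangles stay between 28.5% and 35.1%.

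Depth was related to the size of this share. Over all levels of 0.1 to 0.9, frame-preserving lengths made up 53.6% ± 0.788 of fully coding exons in WT and 52.0% ± 2.47 in MT. With at least 100 reads, a limit chosen after the data were seen, they made up 65.8% ± 1.63 and 63.3% ± 4.04. Coding exons over 0.99 stood at 39.0% ± 0.546 in WT with the same limit. The same exons enter all 6 libraries, so the libraries are repeat measurements of one set of exons and the SD does not cover the choice of exons.

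Short frame-preserving exons were skipped more often than long ones. Middle levels of 0.1 to 0.9 were found in 17.2% to 19.7% of the 1991 exons of up to 60 nt, depending on the library. Among the 5873 exons over 120 and up to 180 nt they were found in 10.05% to 11.9%, and the ranges over the libraries did not overlap. The 907 exons over 300 nt stood between, at 13.6% to 15.5%. Fully coding exons were 83.0% of the shortest class and 56.1% of the longest, and median reads were 71.3 and 73.3, compared with 97.3 between these limits of 120 and 180 nt. Their part in the difference between length classes was not tested.

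**Figure D2:**
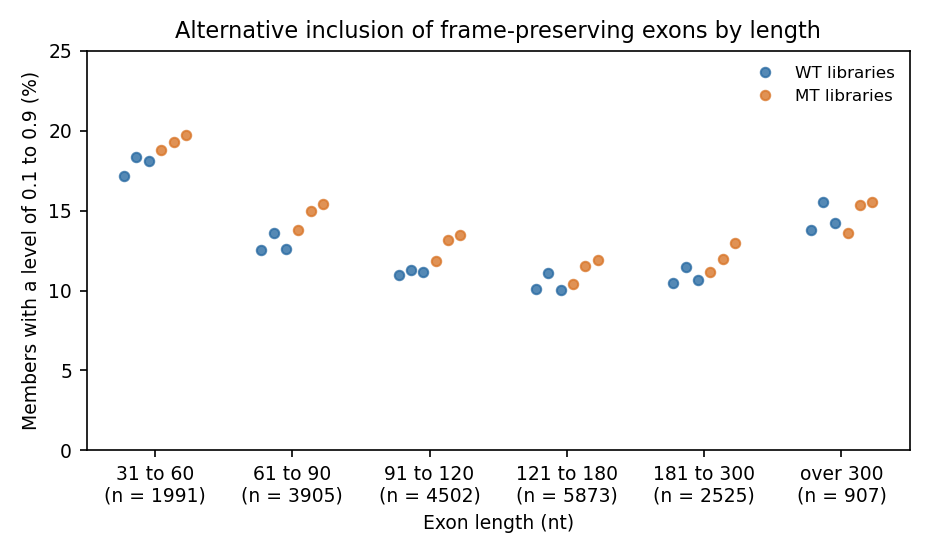
Percent of frame-preserving exons with an inclusion level of 0.1 to 0.9 (y axis) by exon length in nt (x axis, with the number of exons in each class). Each point is 1 library, blue for WT and orange for MT. All 6 libraries of the shortest class, from 17.2% to 19.7%, lie above all libraries of the other classes.

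Annotated skipping separated the exons further. A transcript that joins the neighbours and leaves out the exon was annotated for 8063 exons (40.9%), and of these only 43.8% to 48.0% had a level above 0.9, depending on the library. Among the 11640 exons without such a transcript, 95.7% to 97.1% did. An annotated stop codon lies inside 1908 exons (9.68%) in at least 1 transcript. In such a transcript the protein ends there and keeping the frame has no effect further on, while other transcripts may differ. These exons had mean levels of 0.627 to 0.637, compared with 0.843 to 0.854 for the rest.

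For the comparison of the genotypes, 16934 frame-preserving exons (85.9%) entered a limma fit of arcsine-transformed square roots of the levels, together with every other splice event. A further 2758 had the same level in all 6 libraries, with 2670 at 1 and 88 at 0, and 11 lacked a level in some library. Differences between SF3B1-MT and WT were small for most exons. The MT minus WT difference had a median of -0.002 and an SD of 0.0430 over the fitted exons, and 87.3% of them differed by less than 0.05. Frame-shifting exons had the same median and an SD of 0.0404.

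**Figure D3:**
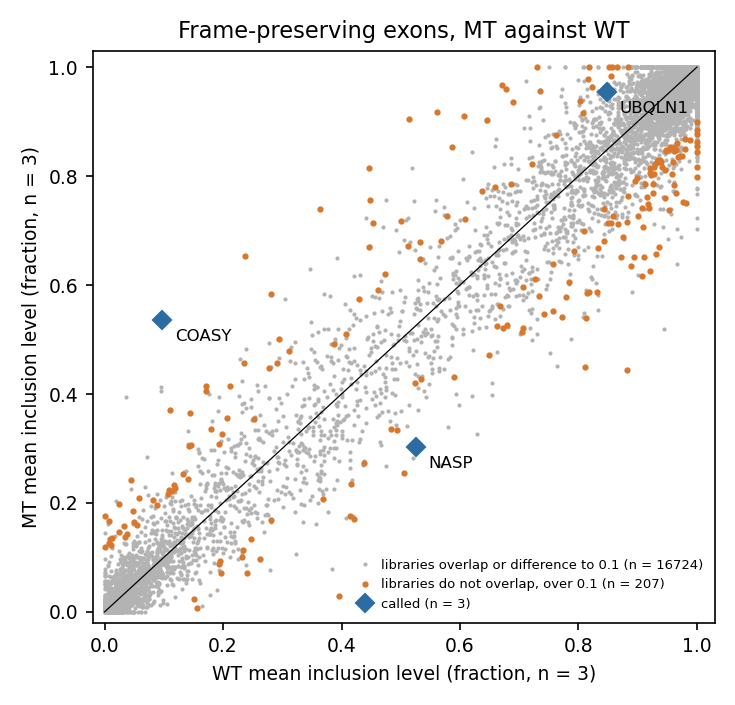
Mean inclusion level in MT (y axis, fraction, n = 3) against WT (x axis, fraction, n = 3) for the 16934 fitted frame-preserving exons, with the line of equal levels. Blue diamonds are the 3 called exons, orange points the other exons whose WT and MT libraries did not overlap and whose means differed by over 0.1, and grey points the rest. NASP lies below the line, UBQLN1 above it near full inclusion, and COASY furthest above it.

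An exon was called when its Benjamini-Hochberg adjusted p over all fitted events was under 0.05 and its mean levels differed by over 0.1. Of the 16934 fitted frame-preserving exons, 3 were called, 2 with higher and 1 with lower inclusion in SF3B1-MT. Over all 83581 fitted events, 26 were called (0.0311%), of which 11 were higher in MT (0.0132%) and 15 lower (0.0179%). Of the 26427 fitted frame-shifting exons, 1 was called with higher and 2 with lower inclusion in MT. These counts are small, and differences between the shares called were not tested.

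NASP was the 1 exon called with lower inclusion. NASP is a histone chaperone that binds linker histones and histone H3, and its 1017-nt exon (chr1:45607321-45608337, plus strand) separates the long from the short protein. It was kept at 0.449, 0.554 and 0.576 in WT libraries 1 to 3 and at 0.281, 0.367 and 0.260 in MT. All MT libraries lay below all WT libraries. The mean level fell by 0.224, from 0.526 ± 0.0679 to 0.303 ± 0.0567 (limma, adjusted p = 0.0170, mean of 452 reads). The exon codes for 339 codons and is coding in full in 2 of the 3 annotated transcripts that hold it, and 6 transcripts skip it.

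UBQLN1 encodes ubiquilin 1, which carries ubiquitinated proteins to the proteasome. Its 84-nt exon (chr9:83666350-83666433, minus strand) was kept at 0.838, 0.855 and 0.849 in WT and at 0.963, 0.978 and 0.923 in MT. The libraries of the genotypes did not overlap, and the mean over inclusion and skipping junctions was 481 reads. The level was 0.107 higher in MT, at 0.955 ± 0.0284 compared with 0.847 ± 0.00862 (limma, adjusted p = 0.0352).

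The 45-nt exon of UBQLN1 begins 39 nt further downstream and ends at the same base, as the sequence above shows. WT libraries had levels of 0.571, 0.569 and 0.617, and MT libraries levels of 0.9, 0.923 and 0.736. These libraries did not overlap either, and the mean was 0.267 higher in MT, but the adjusted p of 0.0726 missed the threshold (limma, mean of 126 reads). Both exons of UBQLN1 are counted against the same skipping junction, so their levels are not independent of each other. The 19 bases from 22 to 4 before the exon held 63.2% pyrimidines at both starts, compared with a median of 73.7% over all frame-preserving exons.

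COASY encodes coenzyme A synthase, which carries out the last steps of coenzyme A production. Its 132-nt exon (chr17:42562356-42562487, plus strand) was kept at 0.150, 0.143 and 0.000 in WT and at 0.653, 0.429 and 0.526 in MT. Every MT library was far above every WT library. The difference of 0.438 was the largest upward one among the fitted frame-preserving exons (limma, adjusted p = 0.0449), and it rests on a mean of 43.1 reads, with 25.7 in WT and 60.5 in MT. The exon is coding in part and is annotated in 1 transcript.

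The 192-nt exon of COASY starts 60 nt upstream of the 132-nt exon and has the same end. It was at 0.056, 0.111 and 0.000 in WT and at 0.188, 0.059 and 0.132 in MT, and these ranges overlapped. The mean differed by 0.0707 (limma, adjusted p = 0.856, mean of 23.1 reads), so of the pair the exon with the downstream start was the one called. The window before the exon held 52.6% pyrimidines at the downstream start and 57.9% at the upstream start. Both COASY exons are counted against the same skipping junction, so their levels are not independent of each other. Whether the effect of the genotype differs between the starts was not tested.

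These calls depended on the fit. None of the 3 was called under several alternatives, among them a logit transform, a fit without the variance trend, one with events of a single level kept, and those that left out WT library 2, WT library 3 or any MT library, and NASP alone was called without WT library 1. Directions did not change in any of these fits. The calls over all events fell too, from 26 to 0 with the logit transform and to 0 without the variance trend. Over all alternatives run, the limma adjusted p ran from 0.0162 to 0.829 for NASP, from 0.0336 to 0.880 for UBQLN1 and from 0.0448 to 0.892 for COASY.

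A second, descriptive count used no test. The WT and MT libraries did not overlap, with means over 0.1 apart, for 210 fitted frame-preserving exons (1.24%), 89 higher and 121 lower in MT. Over all fitted events the same held for 1446 (1.73%), with 628 higher (0.751%) and 818 lower (0.979%) in MT, and for 260 frame-shifting exons (0.984%). Frame-preserving exons thus met this count at a share between those of frame-shifting exons and of all events, and the difference was not tested. With 3 libraries against 3, the smallest p of an exact permutation test for a single exon is 0.1.

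Exons in this count had few reads. The median was 29.6 reads for those higher in MT and 36.0 for those lower, compared with 92.7 for the other fitted exons. Of the 210, 139 had under 50 reads, where 2.83% of the fitted exons met the count, and 35 had at least 100, where 0.439% did. Both directions were present at every depth, with 13 higher and 22 lower at 100 reads or more.

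**Figure D4:**
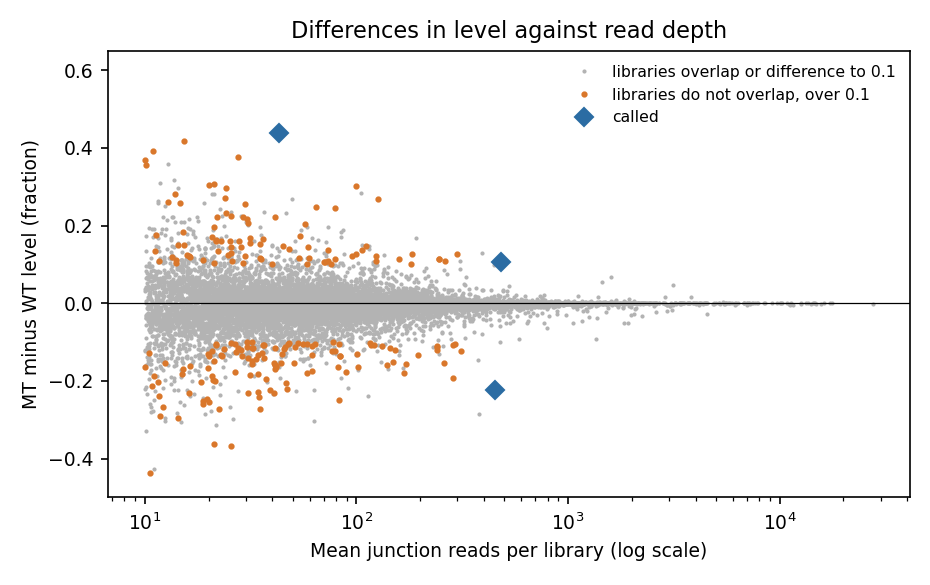
MT minus WT inclusion level (y axis, fraction) against the mean number of junction reads (x axis, log scale) for each fitted frame-preserving exon. Colours are as in the plot of MT against WT levels. Differences narrow as reads increase, most orange points lie under 100 reads, and the called exons of NASP and UBQLN1 differ more than most exons of like depth.

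The exons in this count were mostly annotated as alternative. A skipping transcript was annotated for 191 of them, which is 2.49% of the 7666 fitted exons with one, and 19 had none (0.205% of 9268). Exons without such a transcript were mostly above a level of 0.9, as given above, and the part of the level in this contrast was not tested. Exons that do not code met the count more often (2.43%) than those coding in full (137 of 13458), and their median reads were lower, at 45.5 compared with 104. Of the 1804 fitted exons that share their end with an exon of another start, as in UBQLN1 and COASY, 36 met the count (1.996%), with 18 in each direction. The share was 1.26% for exons with another end at the same start and 1.14% for exons with a single start and end.

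The bases before the exon differed little. The median share of pyrimidines from 22 to 4 bases before the exon was 68.4% for exons higher in MT and 73.7% for those lower and for the other fitted exons, and the quartiles of the first reached from 63.2% to 78.9%. The letters AG occurred again within 30 bases before the AG of the 3′ splice site in 46.1% of the exons higher in MT, 44.6% of those lower and 46.3% of all frame-preserving exons, searched on the strand of the gene. Where an exon of the count had a second fitted row with other neighbouring exons, 47 of 70 such rows, from 48 exons, differed in the same direction. Rows of one exon come from the same libraries and can share junction reads, so they are not independent.

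Among exons with at least 100 reads whose libraries did not overlap, the 10 with the largest differences outside the genes above did not pass the test, with limma adjusted p from 0.0726 to 0.856, and 8 of the 10 were lower in MT. CLSTN1, which links kinesin-1 to transport vesicles, had a 57-nt exon at 0.693, 0.769 and 0.651 in WT and 0.543, 0.543 and 0.453 in MT. The mean was -0.191 apart (limma, adjusted p = 0.151, mean of 287 reads). The highest MT library stayed more than 0.1 below the lowest WT library. CLSTN1 had the richest pyrimidine stretch of the exons printed, at 84.2%.

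SCPEP1, a serine carboxypeptidase gene, came closest to the threshold in this group. Its 114-nt exon was nearly always kept in WT, at 0.988, 0.972 and 0.953, and less in MT, at 0.779, 0.880 and 0.853 (limma, adjusted p = 0.0726). SUMF2, a relative of the sulfatase-modifying enzyme of the endoplasmic reticulum, had a 105-nt exon at 0.765, 0.801 and 0.788 in WT and 0.600, 0.648 and 0.566 in MT. In both genes all MT libraries were lower and the gap between the genotypes was wider than the range within WT.

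MYL6 encodes a light chain of non-muscle and smooth muscle myosin. Its 36-nt exon was at 0.588, 0.437 and 0.454 in WT and at 0.343, 0.384 and 0.276 in MT, with a gap of under 0.1 between the groups. The 144-nt exon that contains it was kept at 0.953 to 0.966 in WT and 0.926 to 0.950 in MT. The overlapping forms shared the direction, and neither passed the test (limma, adjusted p = 0.823 and 0.839). Both are counted against the same skipping junction, so the shared direction is not independent evidence.

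MPHOSPH9, a centriole protein gene, had a 126-nt exon at 0.904, 0.855 and 0.843 in WT and 0.787, 0.640 and 0.709 in MT. PNISR, a protein with arginine-serine repeats like those of splicing factors, had a 54-nt exon at 0.899, 0.737 and 0.864 in WT and 0.727, 0.606 and 0.672 in MT. TPD52L2, of the tumour protein D52 family, had a 60-nt exon at 0.775, 0.575 and 0.689 in WT and 0.492, 0.525 and 0.564 in MT. In PNISR, TPD52L2 and ZC3H11A, the last described next, the highest MT library came close to the lowest WT library, so the absence of overlap there is narrow.

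ZC3H11A, a zinc finger protein of messenger RNA export, had a 204-nt exon that does not code, at 0.681, 0.703 and 0.633 in WT and 0.342, 0.626 and 0.597 in MT. MT library 1 supplied most of this difference. The 2 exons higher in MT were in SMARCA1, an ISWI chromatin remodeller, and MYO9A, an unconventional myosin. The 36-nt SMARCA1 exon was at 0.457, 0.578 and 0.563 in WT and 0.685, 0.638 and 0.715 in MT. The 57-nt MYO9A exon was at 0.660, 0.558 and 0.692 in WT and 0.759, 0.811 and 0.750 in MT. Both had a mean of 106 to 111 reads and differed by under 0.15 (limma, adjusted p = 0.856 for each).

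**Figure D5:**
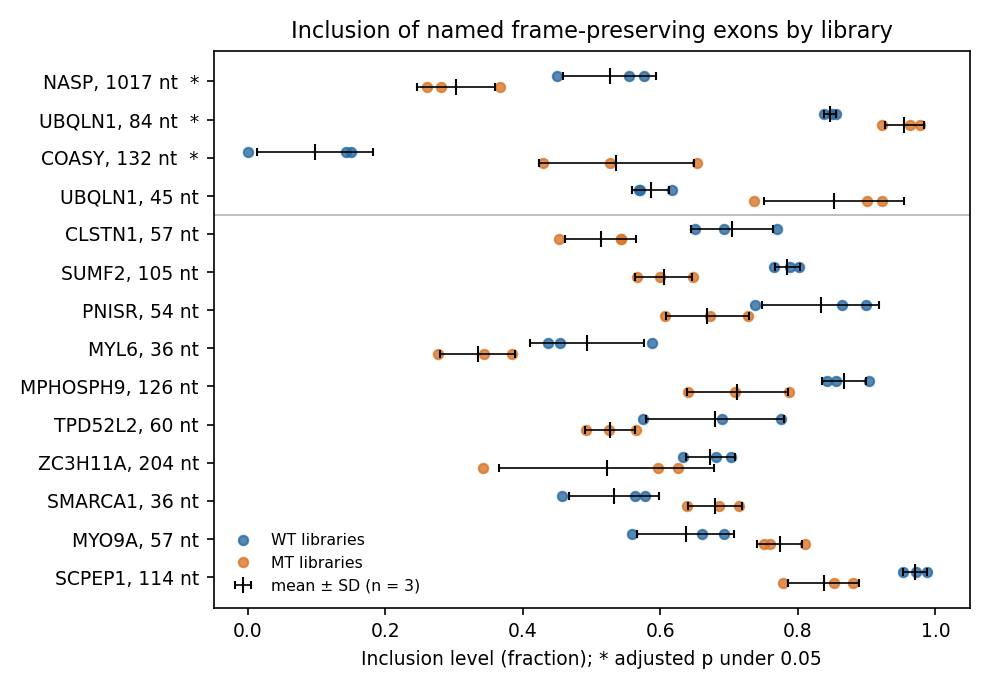
Inclusion level (x axis, fraction) of 14 frame-preserving exons (y axis, gene and exon length), with WT libraries in blue, MT libraries in orange and black bars for mean ± SD (n = 3). Above the line are the exons of the called genes, with an asterisk where the adjusted p was under 0.05, and below it the 10 exons with the largest differences at 100 reads or more. Blue and orange points do not overlap in any row, and the gap is narrowest in PNISR, TPD52L2 and ZC3H11A.

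Alternative exons with many reads and little difference were also described. They were chosen for mean levels of 0.2 to 0.8 and differences under 0.02, so their small differences are no result, and those with the most reads were in RP11-793H13.8, GNAS, C1orf43, HUWE1, GTF2I and ZRANB2. The 45-nt exon of GNAS, the stimulatory G protein alpha subunit, was at 0.787, 0.749 and 0.829 in WT and 0.801, 0.762 and 0.858 in MT (mean of 1119 reads). The 63-nt exon of GTF2I, a general transcription factor, was at 0.448, 0.451 and 0.525 in WT and 0.514, 0.471 and 0.427 in MT (mean of 576 reads). Their WT and MT libraries overlapped.

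The 249-nt exon of HUWE1 was at 0.822, 0.667 and 0.729 in WT and 0.781, 0.752 and 0.658 in MT. The 75-nt exon of ZRANB2, a zinc finger splicing factor, was at 0.709, 0.692 and 0.643 in WT and 0.592, 0.710 and 0.765 in MT. C1orf43 had the same mean level of 0.605 in both genotypes for its 102-nt exon, with replicates from 0.525 to 0.724. The 93-nt exon of RP11-793H13.8, with a mean of 3812 reads, was at 0.696 to 0.754 in WT and 0.734 to 0.765 in MT.

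Exons of genes with textbook regulated cassettes made up the first of 5 gene lists. Of 226 frame-preserving exons in 44 of its genes, 197 were fitted and 0 called by limma. An unadjusted p under 0.05 was found for 15 (7.61%), compared with 4.88% of fitted frame-preserving exons and 4.47% of all fitted events. Genotypes did not overlap by over 0.1 for 6 (3.05%, 1 higher and 5 lower in MT), compared with 1.24% and 1.73%, and neither difference in share was tested. The median difference was -0.00167, compared with -0.002 over all fitted events. The 90-nt exon of BIN1, which shapes membranes, was at 0.763, 0.792 and 0.670 in WT and 0.595, 0.491 and 0.556 in MT at a mean of 37.4 reads. The 267-nt exon of the receptor FGFR1 was at 0.301 to 0.382 in WT and at 0.611, 0.612 and 0.373 in MT, so MT library 3 fell into the WT range. The 105-nt exon of the kinesin KIF13A was at 0.208 to 0.360 in WT and 0.362 to 0.538 in MT, just without overlap.

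Factors of R-loop and RNA processing, which remove or prevent DNA:RNA hybrids or act on RNA, had 107 frame-preserving exons. Of these, 94 were fitted, 0 were called by limma and 3 had an unadjusted p under 0.05. That is 3.19%, compared with 4.88% of fitted frame-preserving exons and 4.47% of all events. The median difference was -0.000667, and 1 exon, higher in MT, did not overlap with means over 0.1 apart. That is 1.06%, compared with 1.24% of fitted frame-preserving exons and 1.73% of all events. STAU1, which binds double-stranded RNA, had a 75-nt exon that does not code at 0.939, 0.973 and 0.972 in WT and 0.922, 0.913 and 0.898 in MT. The STAU1 libraries did not overlap, and their means were -0.0503 apart. The 36-nt exon of the topoisomerase TOP3B overlapped between genotypes, at 0.021 to 0.115 in WT and 0.046 to 0.165 in MT.

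The DNA damage response list had 150 frame-preserving exons, with 129 fitted, 0 called by limma and a median difference of -0.00233. An unadjusted p under 0.05 was found for 8 (6.202%), compared with 4.88% of fitted frame-preserving exons and 4.47% of all events. The count of genotypes apart by over 0.1, which 1.24% of fitted frame-preserving exons and 1.73% of all events met, was 0 for this list. FANCI, a Fanconi anemia protein that is loaded on damaged DNA, had an 84-nt exon that does not code at 0.108, 0.109 and 0.122 in WT and 0.189, 0.204 and 0.218 in MT. The FANCI libraries lay apart by a mean of 0.0907, under the limit, at 109 reads (limma, adjusted p = 0.856). FANCL, the ubiquitin ligase of that pathway, overlapped at 0.101 to 0.358 in WT and 0.264 to 0.484 in MT for a 45-nt exon. In the checkpoint kinase ATR, 1 library decided the difference of a 153-nt exon, with WT library 2 at 0.714 and the other 5 at 1.

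Genes of the centromere, kinetochore and spindle had 160 frame-preserving exons, with 141 fitted, 0 called by limma and a median difference of -0.003. An unadjusted p under 0.05 was found for 13 (9.22%), compared with 4.88% of fitted frame-preserving exons and 4.47% of all events. Genotypes did not overlap by over 0.1 for 2 (1.42%), both lower in MT. The share was 1.24% of fitted frame-preserving exons and 1.73% of all events, and no difference in share was tested. The 141-nt exon of AKAP9, a scaffold of the centrosome and Golgi, was at 0.667, 0.860 and 0.639 in WT and 0.655, 0.524 and 0.317 in MT. The 75-nt exon of the kinetochore motor CENPE spread from 0.310 to 0.833 in WT and from 0.152 to 0.670 in MT. DSN1, a kinetochore subunit, was at 0.887 to 0.914 in WT and 0.651 to 0.909 in MT for a 105-nt exon. All 3 overlapped between genotypes.

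The spliceosome and its regulators had 198 frame-preserving exons, with 172 fitted, 0 called by limma and a median difference of -0.000667. An unadjusted p under 0.05 was found for 6 (3.49%), compared with 4.88% of fitted frame-preserving exons and 4.47% of all events. TRA2A, an activator of exon inclusion, had a 90-nt exon that does not code at 0.033, 0.047 and 0.071 in WT and 0.158, 0.149 and 0.186 in MT. Every MT library was above every WT library (limma, adjusted p = 0.414, mean of 159 reads). The 66-nt exon of LUC7L3, a U1-associated protein, overlapped widely, from 0.397 to 0.736 in WT and from 0.468 to 0.931 in MT. In this list, 2 exons (1.16%) had libraries that did not overlap and means over 0.1 apart, compared with 1.24% of fitted frame-preserving exons and 1.73% of all events. Of the 2, 1 was higher and 1 lower in MT, and TRA2A was the higher.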

How the data were processed

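RNA-Seq of 3 WT and 3 MT HEK293T libraries was grouped by genotype label. Submitters' processing notes name STAR, StringTie and the build hg38, and rMATS is the splicing model in the study's methods. Inclusion levels were deposited as fractions with 3 decimals. Deposited mean junction reads, treated as a coverage signal, are the authors' group means, over all 6 listed values for MT, and set the read minimum and the variance trend. The authors' own tests were not used, nor were the peak lists of the series. Levels were compared by limma 3.58.1 (R 4.3.3) after taking arcsines of square roots, with a variance trend on log2 mean reads and Benjamini-Hochberg adjustment over 83581 events with at least 10 reads and more than 1 level.

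Exon ends were matched to 252835 transcripts of GENCODE release 44. Exons named are those called, up to 10 with the largest differences at 100 reads or more without overlap, 6 with most reads and little difference, and 3 per gene list at 30 reads or more. Some exons that met this rule are not reported here. The exons and lists were chosen with earlier results of these data known. Alternatives covered transform, variance trend, read minimum, rows, thresholds, pairing and each library left out.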

Additional observations from a re-analysis of the deposited data

How the results depend on the processing

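The 3 called exons became 0 with the logit transform, without the variance trend, and with a replicate block on the column numbers. The counts higher and lower in MT were then 0 each. Of the 16934 fitted frame-preserving exons, 588, 620 and 865 then had an unadjusted limma p under 0.05. The main fit had 827. Over all 83581 fitted events, 26 were called in the main fit, and 0, 0 and 12 in these 3 alternatives. Deviations of same-numbered libraries correlated at 0.0997, 0.0974 and 0.0271, each the best match of its library but none over 0.1, so the shared numbers, a hint from the data and not from the design, were not treated as pairs. With at least 50 reads, or no read minimum, 2 were called and 1 was higher in MT. Over all events, 17 of 56183 and 22 of 92954 were then called. With events of one level kept, 2 other exons were called, in KDM8 and NACC2, of which 1 was higher. In that fit 37 of all 94005 events were called. Leaving out 1 library gave 0 to 1 calls, 0 higher and 0 to 1 lower in MT. NASP alone was called without WT library 1 and PDHA1 without MT library 3. Over all events, 3 to 13 were called when 1 library was left out. Fewer libraries entered those fits. For the other alternatives the cause was not tested. The count of 3 held with at least 20 reads, with at least 10 WT reads and with every row of an exon. With at least 20 reads, 26 of all 75012 events were called, and 25 of 83032 with at least 10 WT reads. The count of frame-preserving exons was 4 by adjusted p alone and 2 at a minimum difference of 0.2.

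Exons whose genotypes did not overlap fell from 210 to 71 with at least 50 reads and 35 with at least 100. Frame-preserving shares of fully coding exons at levels of 0.1 to 0.9 moved to 65.8% in WT and 63.3% in MT with at least 100 reads. This alternative was added after seeing the data. The 3 called exons kept their direction in each alternative in which they were fitted. Depth of single libraries is unknown, so no counting interval is given.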

Other observations

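PDHA1, the E1 alpha subunit of pyruvate dehydrogenase, was singled out after its values were seen. Its 93-nt exon (chrX:19354491-19354583) was at 0.995, 0.963 and 0.962 in WT and at 0.591, 0.496 and 0.977 in MT, with a mean of 380 reads. MT library 3 lay in the WT range and the other 2 well below it. The adjusted p was 0.325 with all libraries and 0.000481 without MT library 3 (limma). Over all alternatives run, this exon was called only in that one. MT library 3 is the sixth of the 6 listed MT values, while the other two are the first and the second.

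KDM8 and NACC2 were called only when events with one level in every library entered the fit. Of all 94005 events in that fit, 37 were called. The 93-nt exon of KDM8 was at 1 in every WT library and at 0.862, 0.860 and 0.846 in MT, with a mean of 33.5 reads. The 945-nt exon of NACC2 was at 0.840, 0.872 and 0.857 in WT and at 1 in every MT library, with a mean of 28.6 reads.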
